A study of Mus musculus with 26 samples.

Results

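EA1 and EA2 are murine lung cancer cell lines driven by the EML4-ALK fusion, and the comparison described here set EA2 cells kept in alectinib against EA1 cells kept in alectinib. Alectinib is a kinase inhibitor that blocks ALK, and it was given at 100 nM. The 8 libraries chosen were those whose labels name EA1 or EA2, alectinib and day 1, 2, 3 or 5, so that 4 EA2 libraries stood against 4 EA1 libraries, out of 26 RNA sequencing libraries in the series. The treatment text of the series names exposures of 1, 3, 5 and 7 days instead, and days are given here as in the label of each library. The 8 libraries of the same lines and days in the solvent, 0.1% DMSO, served as the background. Both lines carry Eml4-Alk, made in the lungs of C57BL/6 mice with an adenovirus that brings Cas9 and guides to the Eml4 and Alk genes. EA1 came from a mouse with wild-type Trp53 and was isolated at the institution of the study, whereas EA2 came from a Trp53-null mouse and was received from another laboratory. Each line is a single line, so that a difference between them cannot be told apart from a difference in Trp53 genotype, in tumor or in culture history. Every combination of line, treatment and day was sequenced once, and p-values therefore measure the spread between days of exposure, not between independent cultures of 1 day. Genes on the X and Y chromosomes were left out.

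Library totals lay between 5790374 and 11751971 counts in the 8 alectinib libraries, the shallowest being EA2 on day 2. Across 13134 genes, log2 levels correlated between 0.968 and 0.990 among EA1 libraries in alectinib, and a little lower, between 0.941 and 0.969, among those of EA2. Between the lines the correlation was 0.800 to 0.844. The EA2 library of day 3 stood apart in proliferation genes, as given below. Of 5 epithelial markers, all were detected in EA1 and 4 in EA2, where Epcam was at 0 in every library. Their summed level was 3374 to 5539 CPM in EA1 and 569 to 1211 CPM in EA2. The alveolar type 2 markers were at or near 0 in both lines: Sftpa1 had no count, Nkx2-1 at most 1 and Sftpc at most 1. Among immune cell markers, Cd3e and Tyrobp had no count in alectinib in either line and Ptprc at most 2, while Csf1r had 0 counts in EA1 and up to 6 in EA2.

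ALK is a receptor tyrosine kinase, and the fusion with EML4 keeps its kinase active. It drives RAS and the MAPK cascade, which switches on immediate-early genes such as Egr1 and Egr2, the ETS factors Etv4 and Etv5, and feedback inhibitors such as the ERK phosphatase Dusp6 and the Sprouty proteins. Many immediate-early genes are controlled through the CArG box, a site of the serum response factor made of CC, 6 bases that are each A or T, and GG. RefSeq promoter windows of mm10 were at hand for 16 of the 26 listed MAPK output genes. Within 250 bases before the start, Egr2 and Dusp5 held a CArG box, 2 of these 16 genes, against 1.62% of all 27025 genes with a window. The windows of 3 genes are shown because these genes share a role as MAPK output but not a result in alectinib, where Egr2 and Dusp6 were called lower in EA2 and Dusp5 was not called. CArG boxes are in capitals, the motif was searched on both strands, and the Dusp5 window is printed up to its annotated exon and is 214 bases long. Egr2 has 5 windows, of which the first with a box is shown. An antisense RNA gene covers 22.1% of the exonic bases of Dusp5.
Egr2, chr10:67537316-67537565, plus strand: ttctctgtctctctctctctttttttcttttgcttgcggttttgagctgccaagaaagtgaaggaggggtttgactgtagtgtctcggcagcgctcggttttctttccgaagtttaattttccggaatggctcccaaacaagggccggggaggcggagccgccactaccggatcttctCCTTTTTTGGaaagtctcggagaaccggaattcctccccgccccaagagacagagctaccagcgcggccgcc
Dusp6, chr10:99262981-99263230, plus strand: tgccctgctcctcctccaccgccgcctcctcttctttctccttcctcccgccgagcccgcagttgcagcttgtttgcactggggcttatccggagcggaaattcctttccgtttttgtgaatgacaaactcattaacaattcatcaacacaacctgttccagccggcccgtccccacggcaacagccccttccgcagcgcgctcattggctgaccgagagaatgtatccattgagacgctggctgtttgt
Dusp5, chr19:53528895-53529108, plus strand: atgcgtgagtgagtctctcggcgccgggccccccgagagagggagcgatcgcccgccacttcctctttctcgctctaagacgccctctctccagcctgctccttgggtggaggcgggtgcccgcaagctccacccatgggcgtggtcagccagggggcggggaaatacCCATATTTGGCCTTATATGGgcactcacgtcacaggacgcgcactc
The box of Egr2 began 72 bases before the RefSeq start and those of Dusp5 began 82 and 72 bases before it. No CArG box lay in the Dusp6 window.

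In alectinib, 12339 genes could be tested, and 43.7% of them passed an adjusted p-value of 0.05 (edgeR's quasi-likelihood test with day as a block, Benjamini-Hochberg adjustment). EA2 was higher for 2761 genes (22.4%) and lower for 2633 (21.3%), the shares against which the percentages given for each gene list below are to be read. Which direction held more genes depended on the setting: 2526 were higher and 2811 lower with DESeq2 size factors, 2450 and 2872 with X and Y genes kept in the normalization, 2645 and 2814 in 1 fit of 16 libraries, and 2420 and 3282 with no filter on low counts. In the main setting, 1182 of the 2761 higher and 1598 of the 2633 lower genes also changed by a log2 of 1 or more. In such bulk libraries, fewer cells of a kind and less RNA per cell cannot be told apart. Much of this difference was present without the drug. In DMSO, which shares no library with the alectinib comparison, 36.2% of 11897 genes were called, 17.8% higher and 18.4% lower. Of the 2761 genes higher in EA2 with alectinib, 1240 (44.9%, or 58.5% of the genes higher in DMSO) were also called higher in DMSO, and of the 2633 lower genes, 1406 (53.4%, or 64.4% of those lower in DMSO) were also called lower. Opposite calls were 30 and 47. Whether the line difference itself changed with the drug was tested as an interaction over 16 libraries, in which 6.14% of 13134 genes were called, 2.67% (351 genes) upward and 3.46% (455) downward. Scaling by library size without TMM shifted the median of all genes to 0.18 in DMSO and to -0.16 in the interaction. Then 2740 were higher and 1542 lower in DMSO, and 203 went upward and 665 downward in the interaction. Without day 2 the interaction split was 164 upward and 786 downward, without day 3 it was 44 and 93, and without day 5 it was 48 and 102. Among the genes called in alectinib, the interaction was called toward a wider difference for 196 of the higher and 271 of the lower genes, and toward a narrower or opposite one for 55 and 34. These genes were chosen by their call in alectinib, which favors widening.

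**Figure D1:**
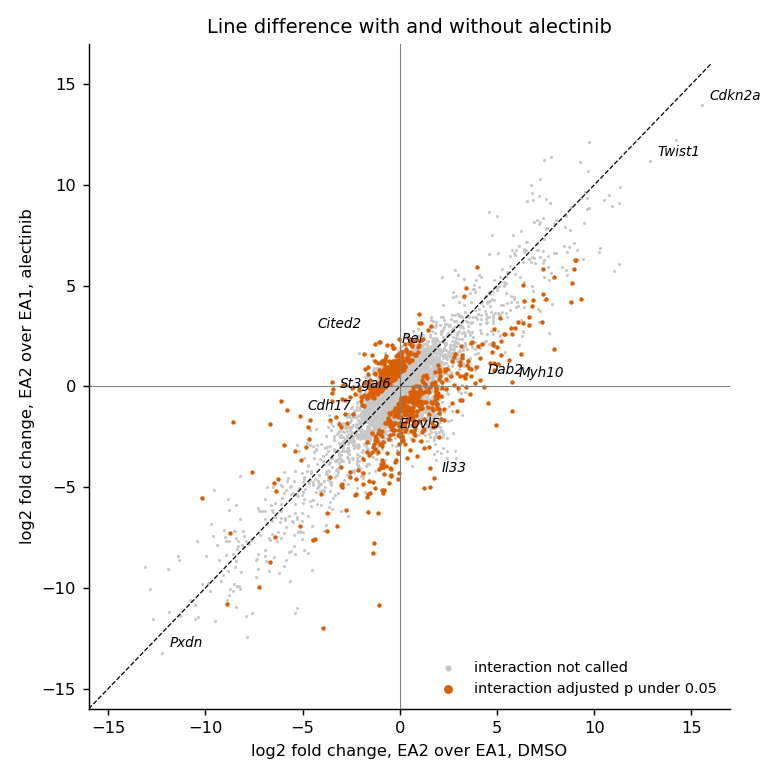
Each point is 1 of 11500 genes tested in both treatments, with the log2 fold change of EA2 over EA1 in DMSO on the x axis and in alectinib on the y axis. Orange points are the 761 of them called in the interaction, and the dashed line marks an equal difference. Cdkn2a, Twist1 and Pxdn lie near that line, whereas Myh10 and Dab2 are far below it and Cdh17 and St3gal6 above it.

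More targets of p53 were lower than higher in EA2 in both treatments. p53 is a stress-activated transcription factor that raises Cdkn1a, an inhibitor of cyclin-dependent kinases, Mdm2, which marks p53 for degradation, and several death genes. Trp53 itself lay, in the order of days 1, 2, 3 and 5 used for all values below, at 159, 131, 113 and 96.7 CPM in EA1 and 72.3, 52.3, 23.6 and 43.1 CPM in EA2. Every EA2 library was below every EA1 library, yet none was at 0 (log2 fold change -1.43 ± 0.21 SE, adjusted p = 0.00185). These gene counts do not show which exons were read and so do not check the deletion. Of the p53 target list, 29 of 29 listed genes were tested, with 1 higher (3.45%) and 18 lower (62.1%) in EA2 (median log2 fold change -0.86), against 0.01 over all genes tested. In DMSO, 1 of 28 was higher and 18 were lower. Cdkn1a was at 74.8, 105, 94.1 and 114 CPM in EA1 and 6.65, 8.16, 8.92 and 6.89 CPM in EA2, with no overlap between lines (log2 fold change -3.62 ± 0.16 SE, adjusted p = 9.97e-06). Its line difference was of similar size in DMSO, where the log2 fold change was -3.03, and the interaction was not called, at -0.61 with adjusted p = 0.471. Mdm2 lay at 101 to 110.4 CPM in EA1 and 61.5 to 69.7 CPM in EA2 (log2 fold change -0.68 ± 0.12 SE, adjusted p = 0.0033), a call lost when all 16 libraries entered 1 fit, with adjusted p = 0.0591. The dicarbonyl reductase Dcxr and the death receptor Fas also fell, by 2.64 and 2.38 on the log2 scale. Plk2, a polo-like kinase, was the one member that rose, from 95.7 to 113 CPM in EA1 to 235 to 332 CPM in EA2 (log2 fold change 1.41 ± 0.14 SE, adjusted p = 0.000346). In the interaction, 2 members were called upward and 0 downward.

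The largest rise over all genes was that of Cdkn2a, the locus of the INK4A inhibitor and of ARF, a protector of p53, on chromosome 4 (89274471 to 89294653, mm10, minus strand). It had 700.3, 686, 612 and 528 CPM in EA2, whereas the 4 EA1 libraries held 1 count in all. From the summed counts, EA2 exceeded EA1 24425-fold (95% exact counting interval 4383 to 964792). Its neighbour Cdkn2b, which encodes another INK4 inhibitor, showed the same picture, with 194, 197, 212 and 148 CPM in EA2 and 1 count in EA1, a ratio of 7264-fold (95% exact counting interval 1303 to 286946). In DMSO both genes had 0 counts in all 4 EA1 libraries. On the Cdkn2a side, Mtap, the next protein-coding gene, was not low in EA1, with 4286 to 6092 counts in EA1 and 1297 to 2257 in EA2. Gm12606, a noncoding gene between Mtap and Cdkn2a, had 15 to 16 counts in EA1 and 0 to 20 in EA2. On the Cdkn2b side, no gene in the stretch examined reached 20 counts, so that the values do not cover that side. Of the other G1 regulators, Rb1, the retinoblastoma protein that INK4 inhibitors act through, was lower in EA2, at 27.5, 29.8, 33.1 and 32.1 CPM in EA1 and 9.93, 7.99, 17.3 and 14.5 CPM in EA2 (log2 fold change -1.32 ± 0.19 SE, adjusted p = 0.00161). In the list as a whole, 20 of 21 listed genes were tested, with 7 higher (35%) and 4 lower (20%) in EA2 (median log2 fold change 0.14), and 4 were higher without day 1.

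Genes of DNA replication were higher in EA2 on most days. For the S phase list, 42 of 43 listed genes were tested, with 23 higher (54.8%) and 0 lower in EA2 (median log2 fold change 0.84). Cdc45, a part of the replicative helicase, was at 13.6, 19.8, 11.1 and 13.1 CPM in EA1 and 48.2, 53.5, 17.4 and 61.3 CPM in EA2 (log2 fold change 1.58 ± 0.26 SE, adjusted p = 0.003), and its day 3 value in EA2 lay within the EA1 range. Cdca7, a chromatin factor of S phase, did not overlap between lines, at 28.1, 36.4, 30.8 and 32.05 CPM in EA1 and 91.5, 104, 88.9 and 104 CPM in EA2 (log2 fold change 1.65 ± 0.12 SE, adjusted p = 7.07e-05). The G2/M list had 5 of 54 genes higher, 9.26% and so below the 22.4% of all genes, and 1 lower, with a median of 0.43. Its largest rise was in Ndc80, a kinetochore protein, at 15.2, 26.8, 18.7 and 16.2 CPM in EA1 and 124, 198, 52.8 and 176 CPM in EA2 (log2 fold change 2.76 ± 0.34 SE, adjusted p = 0.0015). Mki67, the usual marker of cycling cells, was at 269.7, 398, 303 and 233 CPM in EA1 and 283, 327, 83.96 and 457 CPM in EA2 and was not called (log2 fold change -0.21 ± 0.47 SE, adjusted p = 0.74). The EA2 library of day 3 had the lowest Mki67 of the 8. Without day 3 the G2/M list had 32 genes higher and 1 lower, and the S phase list 30 and 0. Without each of the other days, the G2/M list had 2 or 3 genes higher and the S phase list 14 or 15. In DMSO, where 17.8% of all genes were higher, 16 of 42 S phase genes were higher and 0 lower (median 0.64). Of the 54 G2/M genes, 19 were higher and 1 lower there (median 0.73). No member of either list was called in the interaction.

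**Figure D2:**
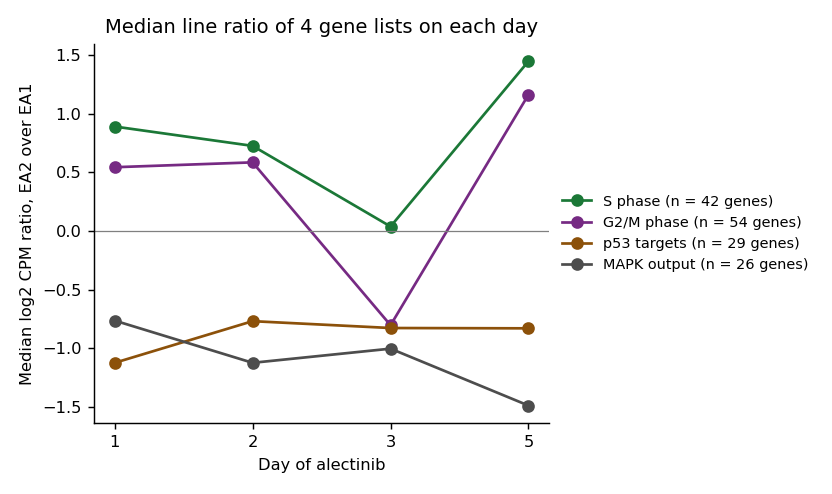
The median log2 ratio of CPM, EA2 over EA1, over the tested genes of 4 lists on days 1, 2, 3 and 5 of alectinib, drawn at equal steps, 1 library per line and day. The p53 targets stayed between -1.12 and -0.77, while the G2/M median fell to -0.80 on day 3 and stood at 1.16 on day 5.

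The BCL2 family sets whether stressed cells die. None of its 13 tested members was higher in EA2 and 8 were lower (61.5%, against 21.3% of all genes), both pro-death and pro-survival genes among them. Bmf, a pro-death member, was at 225, 232, 229 and 211 CPM in EA1 and 60.9, 36.5, 57.9 and 18.5 CPM in EA2 (log2 fold change -2.46 ± 0.29 SE, adjusted p = 0.00091). Bbc3, the p53 target PUMA, was at 17.5 to 21.6 CPM in EA1 and 6.43 to 10.5 CPM in EA2 (log2 fold change -1.26 ± 0.20 SE, adjusted p = 0.00214).

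More genes of MAPK output were called lower in EA2 than higher. For the MAPK output list, 26 of 26 listed genes were tested, with 2 higher (7.69%) and 15 lower (57.7%) in EA2 (median log2 fold change -1.19). Without 1 day at a time, between 10 and 14 genes were lower, the fewest without day 5. The median was -0.47 among members that reached 10 counts in all libraries. The summed CPM of the list, in which abundant members such as Ccnd1 weigh most, went the other way on each day, at 1797, 1637, 2119 and 1796 CPM in EA1 and 1825, 2005, 2365 and 1931 CPM in EA2. In DMSO the same list was split, with 6 higher and 7 lower (median -0.15). Dusp6 was at 30.9, 33.8, 61.5 and 30.5 CPM in EA1 and 15.97, 10.9, 8.45 and 6.66 CPM in EA2, so that all EA2 libraries were below all of EA1 (log2 fold change -1.86 ± 0.32 SE, adjusted p = 0.00388). In DMSO the order was the reverse, with 157 to 257 CPM in EA1 and 259.8 to 422 CPM in EA2, and the interaction was -2.64 with adjusted p = 0.00791. Etv5 lay at 4.88, 7.83, 6.03 and 4.79 CPM in EA1 and 2.56, 0.521, 1.17 and 0.677 CPM in EA2 in alectinib (log2 fold change -2.35 ± 0.54 SE, adjusted p = 0.011) and at 57.3 to 90.95 CPM in EA1 against 111 to 138 CPM in EA2 in DMSO, with an interaction of -2.93 with adjusted p = 0.00624. Etv4 had the same order, at 3.88, 5.84, 4.63 and 3.92 CPM in EA1 and 1.84, 0.347, 1.64 and 1.13 CPM in EA2 (log2 fold change -1.89 ± 0.55 SE, adjusted p = 0.0268, interaction -2.45 with adjusted p = 0.00646), but its call in alectinib was lost when a day was left out (adjusted p = 0.0685 without day 3 and adjusted p = 0.0693 without day 5). The interaction calls of these 3 genes were likewise lost without day 3 or without day 5, with adjusted p between 0.0549 and 0.0691.

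Among immediate-early genes, Egr2, whose promoter is shown above, had 3.48, 8.20, 14.2 and 5.83 CPM in EA1 and at most 3 counts in any EA2 library (log2 fold change -5.28 ± 0.62 SE, adjusted p = 0.000635). Egr1 was at 33.8, 37.5, 78.6 and 31.5 CPM in EA1 and 10.4, 3.47, 5.52 and 1.92 CPM in EA2 (log2 fold change -3.16 ± 0.43 SE, adjusted p = 0.00216). Dusp4, a nuclear phosphatase of the same family as Dusp6, was at 37.1 to 109 CPM in EA1 and 8.86 to 29.7 CPM in EA2 (log2 fold change -2.02 ± 0.18 SE, adjusted p = 0.000172), and it was also lower in DMSO (-1.27). Dusp5, with its 2 CArG boxes, was at 3.92 to 8.36 CPM in EA1 and 3.61 to 8.60 CPM in EA2 and was not called (log2 fold change 0.25 ± 0.28 SE, adjusted p = 0.505). Fosl1, an AP-1 factor, was not called either, at 2.89, 3.85, 9.58 and 6.10 CPM in EA1 and 11.6, 7.47, 5.05 and 3.16 CPM in EA2 (log2 fold change 0.29 ± 0.58 SE, adjusted p = 0.712), and 57.2% of its exonic bases are shared with another gene in the annotation.

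Myc and Ccnd1, the cyclin D1 gene, went the other way. Myc, a driver of growth, was at 82.5, 72.8, 73.8 and 68.1 CPM in EA1 and 297, 296, 446 and 248 CPM in EA2 (log2 fold change 2.11 ± 0.16 SE, adjusted p = 9.56e-05). In DMSO it had 204 to 602 CPM in EA1 and 322 to 378 CPM in EA2, and the interaction was 1.84 with adjusted p = 0.0141, lost without day 5 (adjusted p = 0.0661). Ccnd1 was at 185, 195, 192 and 226 CPM in EA1 and 293, 284, 358 and 352 CPM in EA2 (log2 fold change 0.72 ± 0.12 SE, adjusted p = 0.00276), a smaller line difference than in DMSO, where the log2 fold change was 1.79. That narrowing was called, at -1.07 with adjusted p = 0.0417, but lost without day 2, 3 or 5. Transcripts of the fusion partners were more abundant in EA2. Alk was at 59.04, 49.7, 43.1 and 42.3 CPM in EA1 and 113, 101, 138 and 101 CPM in EA2 (log2 fold change 1.26 ± 0.15 SE, adjusted p = 0.000702). Eml4 was at 34.2, 31.4, 31.2 and 24.2 CPM in EA1 and 113, 88.1, 131 and 115 CPM in EA2 (log2 fold change 1.92 ± 0.16 SE, adjusted p = 0.000121). These counts do not separate fusion from wild-type transcripts.

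**Figure D3:**
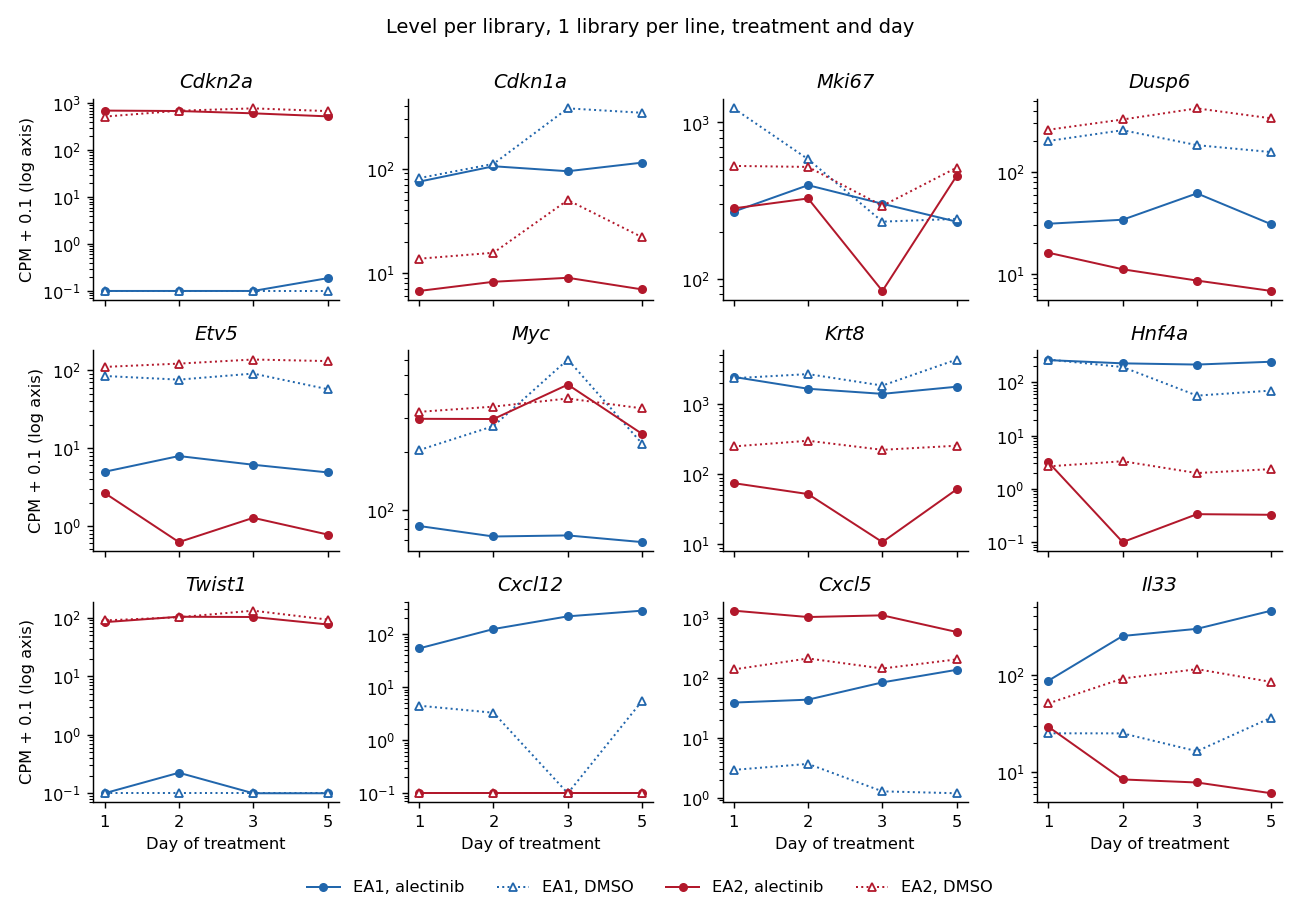
CPM plus 0.1 on a log axis against day of treatment (days at equal steps) for 12 genes, with filled circles for alectinib and open triangles for DMSO, EA1 in blue and EA2 in red, 1 library per point. Cdkn2a and Twist1 separate the lines in both treatments, Dusp6 and Etv5 change order between treatments, and Il33 is highest in EA1 with alectinib and lowest in EA2 with alectinib from day 2.

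Genes of epithelial lineages also differed between the lines. For the epithelial list, 16 of 33 listed genes were tested, with 2 higher (12.5%) and 12 lower (75%) in EA2 (median log2 fold change -2.92). Krt8, a keratin of simple epithelia, was at 2469.7, 1674, 1415 and 1789.6 CPM in EA1 and 74.9, 52.3, 10.7 and 61.1 CPM in EA2 (log2 fold change -5.40 ± 0.46 SE, adjusted p = 0.000466). The adhesion protein E-cadherin, encoded by Cdh1, was lower in EA2 but still abundant, at 602 to 807 CPM in EA1 and 144 to 289 CPM in EA2 (log2 fold change -1.84 ± 0.21 SE, adjusted p = 0.000567). The epithelial transcription factor Elf3 was at 13.7 to 28.9 CPM in EA1 and 0.174 to 0.921 CPM in EA2 (log2 fold change -5.37 ± 0.47 SE, adjusted p = 0.00018). Dsp, which encodes the desmosomal protein desmoplakin, rose instead, to 158 to 338 CPM from 65.7 to 83.5 CPM (log2 fold change 1.51 ± 0.21 SE, adjusted p = 0.00124). For genes of gut and stomach epithelium, 11 of 24 listed genes were tested, with 0 higher and 10 lower (90.9%) in EA2 (median log2 fold change -5.09) (-3.37 with genes at 0 in one line set to their bound). The filter admits genes that are high in 1 line alone, which favors such a share. Only 3 of the genes had at least 10 counts in every library, and all 3 were lower (median -2.15). Hnf4a, a transcription factor of liver and gut, was at 262, 228, 216 and 244 CPM in EA1 and 3.07, 0, 0.235 and 0.226 CPM in EA2 (log2 fold change -8.15 ± 0.74 SE, adjusted p = 0.000912). The keratin Krt20 was at 19.2 to 36.8 CPM in EA1 and 0.113 to 0.705 CPM in EA2 (log2 fold change -6.26 ± 0.43 SE, adjusted p = 6.29e-05). Of 5 alveolar type 2 genes tested, 4 were lower and 1 higher in EA2, whereas in DMSO 1 was lower and 3 were higher. In the interaction, 0 of 6 were called upward and 2 downward. Only 2 alveolar type 2 genes had at least 10 counts in every library, 1 higher and 1 lower. Of 17 alveolar type 1 genes, 8 were tested, with 3 higher and 0 lower (1 higher without day 2 or day 3, 2 higher and 1 lower of 9 without day 1, and 3 higher and 2 lower of 15 with no filter on low counts). Of 13 airway genes, 2 were tested, with 1 of each (3 without day 2, of which 1 was higher and 2 lower). Of the genes of other cells, 1 of 11 immune genes was tested, Cd68, a lysosomal membrane protein abundant in macrophages, and was higher, at 1.69, 2.86, 6.46 and 5.75 CPM in EA1 and 19.96, 12.3, 53.8 and 23.1 CPM in EA2 (log2 fold change 2.70 ± 0.30 SE, adjusted p = 0.000487). The summed level of the 11, most of which was Cd68 in every library, was 2.49 to 6.78 CPM in EA1 and 12.9 to 54.7 CPM in EA2. In addition, 1 of 7 endothelial genes was tested and was lower. The alveolar type 2 genes included Abca3, the lipid transporter of surfactant, at 52.7 to 65.04 CPM against 4.17 to 10.3 CPM (log2 fold change -3.18 ± 0.19 SE, adjusted p = 3.74e-05). Sox2, an airway and stem cell factor, was higher in EA2, at 7.58 to 16.03 CPM in EA1 and 42.04 to 53.8 CPM in EA2 (log2 fold change 2.24 ± 0.19 SE, adjusted p = 0.000156).

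The mesenchymal list did not move one way, as 22 of 25 listed genes were tested, with 7 higher (31.8%) and 5 lower (22.7%) in EA2 (median log2 fold change -0.01). That median was between 0.02 and 0.10 without 1 day. Its largest rises were Twist1 and Prrx1, transcription factors of mesenchyme. Twist1 had 84.05, 104, 103 and 76.8 CPM in EA2 and 1 count over the EA1 libraries, a ratio of 3517-fold (95% exact counting interval 631 to 138947). Prrx1 had 117, 102, 95.5 and 112 CPM in EA2 and 2 counts in EA1, a ratio of 2089.7-fold (95% exact counting interval 578 to 17262). In DMSO, the EA1 libraries held 0 counts of Twist1 and 2 of Prrx1, against 4000 and 2303 in EA2. Tnc, the matrix protein tenascin C, was at 13.8, 38.03, 42.9 and 38.9 CPM in EA1 and 1122, 1051, 1687 and 1396 CPM in EA2 (log2 fold change 5.42 ± 0.29 SE, adjusted p = 2.69e-05). The smooth muscle proteins Cnn1 and Myl9 were lower in EA2, Cnn1 at 46.8, 49.2, 46.7 and 57.1 CPM in EA1 and 0.921, 1.74, 2.11 and 9.03 CPM in EA2 (log2 fold change -4.19 ± 0.51 SE, adjusted p = 0.00166). Myl9 was at 58.5, 46.1, 36.2 and 60.3 CPM against 1.13, 3.82, 0.705 and 14.3 CPM (log2 fold change -3.93 ± 0.73 SE, adjusted p = 0.00996, but 0.0768 with no filter on low counts).

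**Figure D4:**
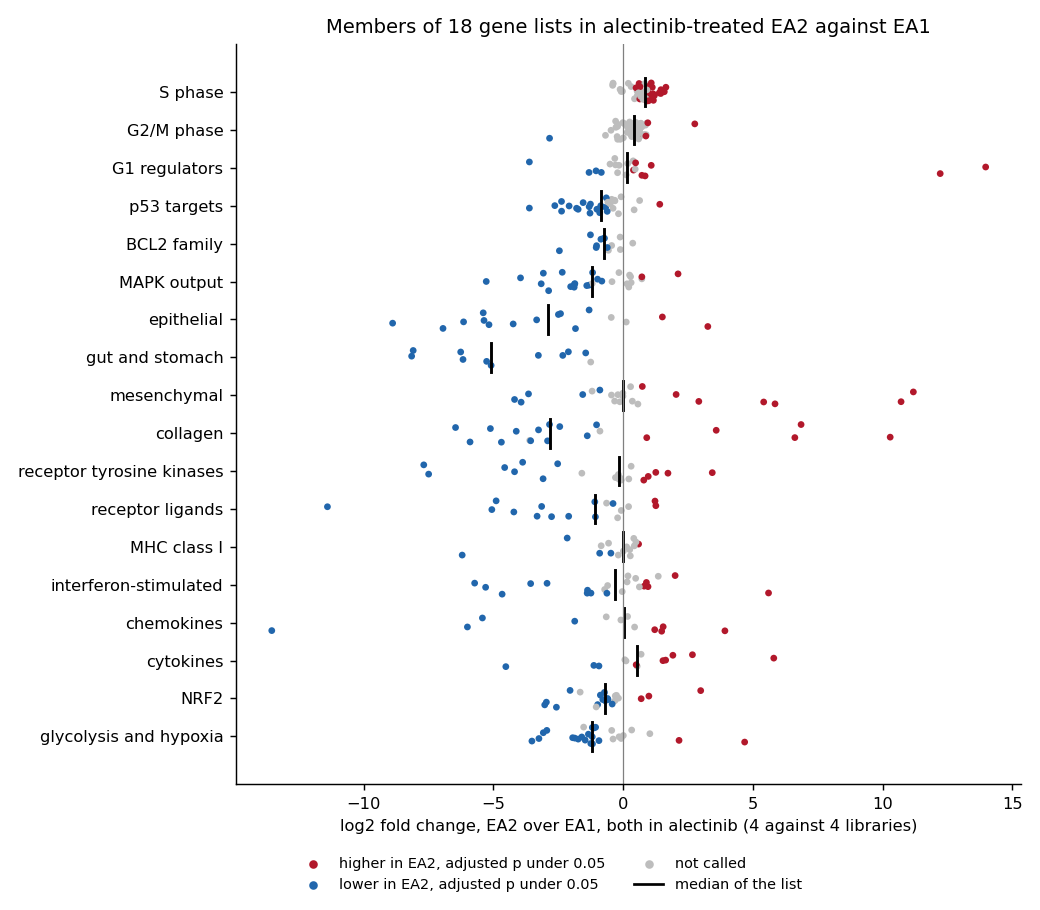
Log2 fold change of EA2 over EA1 in alectinib for every tested member of 18 gene lists, red where higher and blue where lower in EA2 at an adjusted p under 0.05, grey where not called, with the list's median as a black bar. Gut and stomach genes have the lowest median drawn, -5.09, and S phase genes the highest, 0.84, while mesenchymal genes and chemokines spread to both sides of 0. These ranks depend on the setting. With at least 10 counts in every library, collagens (-2.49) and epithelial genes (-2.46) were below gut and stomach genes (-2.15). Without day 5, cytokines (0.65) were above S phase genes (0.63).

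The lines expressed different matrix genes. For collagens, 19 of 25 listed genes were tested, with 5 higher (26.3%) and 12 lower (63.2%) in EA2 (median log2 fold change -2.84). Without day 3, 4 were higher and 8 lower. Col11a1, a fibrillar collagen of cartilage, was at 0.398, 0, 0.323 and 0.348 CPM in EA1 and 172, 196, 595 and 500.1 CPM in EA2 (log2 fold change 10.29 ± 0.38 SE, adjusted p = 6.43e-06). Acan, the cartilage proteoglycan aggrecan, had 134, 79.4, 152 and 27.3 CPM in EA2 and 1 count in EA1, a ratio of 3899-fold (95% exact counting interval 699 to 154064). Col1a2 rose as well, to 74.01, 36.8, 30.2 and 84.3 CPM from 0, 0.124, 0.754 and 1.05 CPM (log2 fold change 6.86 ± 0.65 SE, adjusted p = 0.00071). For other matrix proteins and proteases, 21 of 28 listed genes were tested, with 6 higher (28.6%) and 7 lower (33.3%) in EA2 (median log2 fold change -0.67). Without day 3, 2 were higher, and the median was -0.38 without day 1 or day 5. Among those lower in EA2, Col3a1 was at 45.6, 105, 175 and 264 CPM in EA1 and 0.921, 1.91, 0.470 and 3.05 CPM in EA2 (log2 fold change -6.46 ± 0.42 SE, adjusted p = 0.000124). Col27a1 was at 23.3 to 27.1 CPM against 0 to 0.819 CPM (log2 fold change -5.90 ± 0.55 SE, adjusted p = 0.000344). The peroxidase of basement membranes, Pxdn, had 395, 446, 466 and 424 CPM in EA1 and 1 count in EA2, EA1 exceeding EA2 14178-fold (95% exact counting interval 2544 to 560030.0). The gelatinase Mmp2 had 12.9, 36.5, 61.4 and 85.3 CPM in EA1 and 1 count in EA2. Dcn, the small proteoglycan decorin, was higher in EA2, at 0.896 to 9.93 CPM in EA1 and 32.6 to 169.6 CPM in EA2, a call lost in 2 settings (log2 fold change 4.33 ± 1.07 SE, adjusted p = 0.033, adjusted p = 0.119 without day 3 and 0.136 with no filter on low counts). The 6 fibroblast markers were split in the same way. Col3a1 and Col1a1 were called lower in EA2 and Col1a2 and Dcn higher, while Lum had at most 41 counts in EA1 and 0 in EA2 and Pdgfra had at most 8 counts. The 6 markers summed to 60.1 to 340.1 CPM in EA1 and 119.5 to 248 CPM in EA2. In the longer list of 10 fibroblast genes, 5 were tested, 2 higher (1 without day 3) and 3 lower in EA2. The part that other cells could have in these values was not tested.

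Integrins and laminins were lower in EA2 more often than higher, since 19 of 22 listed genes were tested, with 2 higher (10.5%) and 12 lower (63.2%) in EA2 (median log2 fold change -1.03), and 1 was higher without day 3. Itgb4, the laminin receptor subunit of hemidesmosomes, was at 311, 228, 244 and 329 CPM in EA1 and 1.13, 0.174, 0.117 and 0.339 CPM in EA2 (log2 fold change -9.20 ± 0.38 SE, adjusted p = 1.06e-05). The collagen receptor Itga2 was at 38.5 to 60.6 CPM in EA1 and 0.339 to 6.93 CPM in EA2 (log2 fold change -4.17 ± 0.58 SE, adjusted p = 0.0031). Itgb8, whose product activates TGF-beta, rose to 9.38 to 17.5 CPM from 3.09 to 8.10 CPM (log2 fold change 1.35 ± 0.29 SE, adjusted p = 0.00791).

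Receptor tyrosine kinases can carry survival signals when ALK is blocked. Of the list, 20 of 30 listed genes were tested, with 5 higher (25%) and 7 lower (35%) in EA2 (median log2 fold change -0.17), a share higher near that of all genes, with a median of -0.38 to -0.08 without 1 day. Fgfr1, a fibroblast growth factor receptor, was at 10.8, 13.5, 20.5 and 18.2 CPM in EA1 and 135, 125, 288 and 139 CPM in EA2 (log2 fold change 3.43 ± 0.18 SE, adjusted p = 2.11e-05), and the log2 fold change in DMSO was 3.76. The PDGF receptor Pdgfrb was at 69.7, 94.4, 133 and 156 CPM in EA1 and 0.205, 0, 0.352 and 1.58 CPM in EA2 (log2 fold change -7.69 ± 0.43 SE, adjusted p = 5.71e-05) and the ephrin receptor Ephb2 at 36.7 to 49.9 CPM in EA1 and 0 to 0.521 CPM in EA2 (log2 fold change -7.50 ± 0.45 SE, adjusted p = 4.81e-05). Their ligands leaned to EA1, where 17 of 22 listed genes were tested, with 2 higher (11.8%) and 11 lower (64.7%) in EA2 (median log2 fold change -1.09). Fgf1 was at 23.99, 28.1, 24.1 and 27.4 CPM in EA1 and 3.17, 0.521, 0 and 0.339 CPM in EA2 (log2 fold change -5.06 ± 0.86 SE, adjusted p = 0.00653). Its interaction was -3.78 with adjusted p = 0.0181, lost without day 3 or day 5, and its call in alectinib was lost with no filter on low counts (adjusted p = 0.0608). Igf2 had 20.7, 31.3, 46.3 and 53.8 CPM in EA1 and 0 counts in EA2, at least 100.1-fold lower against a floor of 3 counts per library, although 62.8% of its exonic bases overlap another annotated gene. The ephrin Efna1 rose to 34.8 to 65.2 CPM from 16.6 to 22.6 CPM (log2 fold change 1.26 ± 0.21 SE, adjusted p = 0.00289).

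Wnt, Notch and YAP, signaling routes that control cell fate and growth, had genes called in both directions. For Wnt genes, 23 of 36 listed genes were tested, with 6 higher (26.1%) and 9 lower (39.1%) in EA2 (median log2 fold change -0.51). Wnt10b, a ligand, was at 0.697, 0.497, 0.538 and 1.22 CPM in EA1 and 110.3, 34.2, 39.1 and 27.2 CPM in EA2 (log2 fold change 5.96 ± 0.45 SE, adjusted p = 0.000182). The receptor Fzd8 was at 11.95 to 18.8 CPM against 43.3 to 97.3 CPM (log2 fold change 2.04 ± 0.26 SE, adjusted p = 0.000958). The receptor Fzd4 was lower, at 29.1, 42.7, 39.7 and 48.1 CPM in EA1 and 3.69, 2.26, 8.22 and 2.71 CPM in EA2 (log2 fold change -3.30 ± 0.36 SE, adjusted p = 0.000625), while in DMSO the lines had 19.8 to 26.6 and 16.9 to 26.02 CPM (interaction -3.23 with adjusted p = 0.00217). The R-spondin receptor Lgr6 was at 43.5 to 58.7 CPM in EA1 and 1.24 to 3.29 CPM in EA2 (log2 fold change -4.74 ± 0.28 SE, adjusted p = 2.84e-05). For Notch genes, 13 of 18 listed genes were tested, with 2 higher (15.4%) and 7 lower (53.8%) in EA2 (median log2 fold change -0.75). The Notch target Hey1 was at 14.6, 24.7, 32.8 and 79.6 CPM in EA1 and 1.23, 1.04, 1.64 and 0.565 CPM in EA2 (log2 fold change -4.78 ± 0.56 SE, adjusted p = 0.00135, interaction -4.32 with adjusted p = 0.00575, lost without day 3 or day 5). The ligand Jag2 was at 74.5 to 89.8 CPM in EA1 and 3.65 to 15.7 CPM in EA2 (log2 fold change -3.55 ± 0.36 SE, adjusted p = 0.000719). Of the 20 names listed for targets and partners of YAP and TEAD, 18 were symbols in the counts. All 18 were tested, with 4 higher (22.2%) and 6 lower (33.3%) in EA2 (median log2 fold change 0.16), and the share higher was near that of all genes. Without day 1, 6 were higher and 4 lower. The higher genes were 2 without day 2, 1 without day 3 and 0 without day 5. Crim1 and F3, the tissue factor gene, were lower in EA2, by 1.39 and 3.12 on the log2 scale. The largest rises were those of Amotl2, which encodes angiomotin-like 2, and Ankrd1, a usual readout of YAP. Amotl2 was at 379, 206, 157 and 243 CPM in EA1 and 534, 655, 1215 and 979 CPM in EA2 (log2 fold change 1.82 ± 0.40 SE, adjusted p = 0.0141), and its call was lost without day 5 (adjusted p = 0.0765) and with no filter on low counts (0.111). Ankrd1 was at 335, 186, 127 and 191 CPM in EA1 and 370.0, 583, 564 and 570.1 CPM in EA2 (log2 fold change 1.43 ± 0.33 SE, adjusted p = 0.0161), a call lost without day 3 (adjusted p = 0.0526), without day 5 (0.0766) and with no filter (0.0826).

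Genes that face the immune system differed one by one, without a common direction in antigen presentation. In the MHC class I list, 15 of 18 listed genes were tested, with 1 higher (6.67%) and 4 lower (26.7%) in EA2 (median log2 fold change 0.01), and the median was below 0 under the other scalings tried and without any 1 day. The higher genes were 0 without day 2 or day 3 and 2 without day 5. B2m, the light chain of MHC class I, was at 235, 253, 256 and 254 CPM in EA1 and 281, 329.7, 329 and 247 CPM in EA2 and was not called (log2 fold change 0.28 ± 0.13 SE, adjusted p = 0.124). The heavy chain H2-D1 was at 105 to 134 CPM in EA1 and 48.7 to 90.5 CPM in EA2 (log2 fold change -0.91 ± 0.17 SE, adjusted p = 0.00447). Only 1 of 7 MHC class II genes was tested, and it was not called. Among interferon-stimulated genes, 22 of 39 listed genes were tested, with 5 higher (22.7%) and 9 lower (40.9%) in EA2 (median log2 fold change -0.32), with a median of -0.64 without day 1 and -0.56 without day 5. The death-associated factor Xaf1 was at 0.796, 0.994, 0.323 and 1.13 CPM in EA1 and 49.9, 33.9, 41.2 and 32.3 CPM in EA2 (log2 fold change 5.60 ± 0.34 SE, adjusted p = 3.43e-05). Samd9l, an antiviral factor, was at 101, 113, 124 and 141 CPM in EA1 and 4.91, 2.43, 1.41 and 3.27 CPM in EA2 (log2 fold change -5.30 ± 0.33 SE, adjusted p = 7.21e-05). Parp14, an ADP-ribosyltransferase, was at 8.95 to 13.6 CPM against 3.30 to 6.86 CPM (log2 fold change -1.37 ± 0.25 SE, adjusted p = 0.00442). Of the 19 names listed for sensors and interferon receptors, 17 were symbols in the counts. Of these, 15 genes were tested, with 2 higher (13.3%) and 7 lower (46.7%) in EA2 (median log2 fold change -0.69). Without day 2 or day 3, 4 were lower, and without day 1, 3 or 5, 1 was higher. Both chains of the interferon gamma receptor were lower in EA2, Ifngr1 by 1.01 and Ifngr2 by 1.20 on the log2 scale. The 2 higher genes were Cgas, the sensor of cytosolic DNA, and Mavs. Cgas was low, at 0.199, 0.373, 0.215 and 0.348 CPM in EA1 and 2.35, 2.95, 1.76 and 4.52 CPM in EA2, with at most 4 counts in EA1 and 40 in EA2 (log2 fold change 3.31 ± 0.53 SE, adjusted p = 0.00244). Mavs, the adaptor of the RNA sensors, was at 33.1 to 36.7 CPM against 38.7 to 53.5 CPM (log2 fold change 0.47 ± 0.14 SE, adjusted p = 0.0313), a call lost without day 1, 3 or 5 (adjusted p of 0.0831 to 0.114), with no filter on low counts (0.112), in 1 fit of 16 libraries (0.0654) and with X and Y genes kept in the normalization (0.0541).

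Chemokines attract white blood cells. In the list, 12 of 20 listed genes were tested, with 4 higher (33.3%) and 4 lower (33.3%) in EA2 (median log2 fold change 0.04). The median was below 0 with DESeq2 size factors or with X and Y genes kept in the normalization, and -0.23 to 0.24 without 1 day, and 2 were higher without day 1 or day 2. Cxcl12, which acts on CXCR4, had 53.9, 125, 217 and 278 CPM in EA1 and 0 counts in each EA2 library, at least 443-fold lower in EA2 against the floor of 3 counts per library. The lung chemokine Cxcl15 was at 27.5, 87.9, 176 and 212 CPM in EA1 and 1.13, 1.04, 4.34 and 0.677 CPM in EA2 (log2 fold change -6.01 ± 0.56 SE, adjusted p = 0.000794, interaction -5.80 with adjusted p = 0.0115, lost without day 5 with adjusted p = 0.0822). Cxcl5, a neutrophil attractant, was the opposite, at 38.3, 42.9, 83.2 and 135 CPM in EA1 and 1304, 1022, 1090.3 and 576 CPM in EA2 (log2 fold change 3.92 ± 0.58 SE, adjusted p = 0.0046). Cxcl1, of the same class, was not called, at 154, 174, 266 and 274 CPM in EA1 and 192, 184, 312 and 123 CPM in EA2 (log2 fold change -0.09 ± 0.26 SE, adjusted p = 0.799). The T cell attractants Cxcl9 and Cxcl10 were too low to be tested: Cxcl9 had 0 counts in all 8 libraries, and Cxcl10 lay at 0 to 0.299 CPM in EA1 and 0.347 to 1.64 CPM in EA2. Ccl25, which draws lymphocytes to the gut, was at 3.48 to 8.53 CPM against 9.63 to 14.6 CPM (log2 fold change 1.22 ± 0.30 SE, adjusted p = 0.015).

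For cytokines and growth factors, 13 of 22 listed genes were tested, with 6 higher (46.2%) and 3 lower (23.1%) in EA2 (median log2 fold change 0.54). Csf1 and Il34, the 2 ligands of the macrophage receptor CSF1R, were both higher in EA2. Csf1 was at 217, 123, 114 and 118 CPM in EA1 and 686, 672, 1257 and 912 CPM in EA2 (log2 fold change 2.67 ± 0.30 SE, adjusted p = 0.000871). Il34 was at 0.299, 0.497, 0 and 0.435 CPM in EA1 and 19.1, 19.98, 16.2 and 13.2 CPM in EA2 (log2 fold change 5.81 ± 0.53 SE, adjusted p = 0.000237). Of the TGF-beta ligands, Tgfb1 was lower in EA2, at 161 to 205 CPM against 67.1 to 100.4 CPM (log2 fold change -1.13 ± 0.14 SE, adjusted p = 0.000777). Tgfb2 was higher on each day, at 7.07, 9.69, 19.6 and 29.9 CPM in EA1 and 20.2, 35.1, 61.1 and 60.97 CPM in EA2 (log2 fold change 1.53 ± 0.18 SE, adjusted p = 0.000617). Il33, an alarmin, was at 87.2, 252, 298 and 458 CPM in EA1 and 29.3, 8.34, 7.75 and 5.98 CPM in EA2 (log2 fold change -4.52 ± 0.99 SE, adjusted p = 0.023, adjusted p = 0.106 without day 3 and adjusted p = 0.0854 without day 5, and 0.0959 with no filter on low counts). In DMSO the order was reversed, with 25.04, 25.02, 16.4 and 36.4 CPM in EA1 and 50.9, 91.8, 115 and 84.7 CPM in EA2, and the interaction was -6.25 with adjusted p = 0.0031, lost without day 3 (adjusted p = 0.0592). Of 7 complement genes tested, 2 were higher and 3 lower. C1ra, a protease of the classical pathway, was at 4.85 to 17.9 CPM in EA1 and 37.1 to 81.4 CPM in EA2 (log2 fold change 2.43 ± 0.39 SE, adjusted p = 0.00419). C1qbp, a mitochondrial protein that also binds C1q, was at 69.5 to 102 CPM against 189 to 224 CPM (log2 fold change 1.24 ± 0.14 SE, adjusted p = 0.000583). Cd55, which protects cells from complement, had 5.28, 10.1, 17.7 and 30.6 CPM in EA1 and 0 counts in EA2, at least 41.8-fold lower against that floor. Of 8 checkpoint ligands tested, 2 were higher and 5 lower. Without day 3 or day 5, 1 was higher, and without day 1 or day 5, 3 were lower. The 2 higher genes were Cd274, which encodes PD-L1, and Pvr, a ligand of TIGIT. Cd274 was low, at 0.0996, 0, 0.108 and 0.0871 CPM in EA1 and 1.84, 2.26, 2.23 and 1.47 CPM in EA2 (log2 fold change 4.46 ± 0.76 SE, adjusted p = 0.00314), with 3 counts over the EA1 libraries and a ratio of 24.8-fold (95% exact counting interval 8.11 to 124). Pvr was at 39.1 to 51.5 CPM against 54.2 to 96.9 CPM (log2 fold change 0.59 ± 0.16 SE, adjusted p = 0.0219), a call lost without day 3 (adjusted p = 0.0995), without day 5 (0.0730) and in 1 fit of 16 libraries (0.124). Cd276, also known as B7-H3, was at 114, 168, 164 and 171 CPM in EA1 and 51.9, 43.4, 40.2 and 31.8 CPM in EA2 (log2 fold change -1.85 ± 0.21 SE, adjusted p = 0.000642), whereas in DMSO it had 79.99 to 111 CPM in EA1 and 99.3 to 117 CPM in EA2 (interaction -1.98 with adjusted p = 0.00339).

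Genes of drug handling were followed next. Of 7 ABC drug transporters, 2 were higher and 3 lower in EA2, and the higher share, 28.6%, was near the 22.4% of all genes. Without day 2, 3 or 5, 1 was higher. The efflux pump Abcg2 was at 57.5, 66.9, 76.8 and 74.5 CPM in EA1 and 0.614, 1.56, 1.06 and 2.71 CPM in EA2 (log2 fold change -5.58 ± 0.31 SE, adjusted p = 2.77e-05). Abcb1a, a P-glycoprotein gene, was at 20.1, 30.1, 36.8 and 31.3 CPM in EA1 and 1.95, 2.95, 7.40 and 2.94 CPM in EA2 (log2 fold change -3.04 ± 0.25 SE, adjusted p = 0.000121). Abcb1b, the other P-glycoprotein gene, was higher in EA2, at 20.01, 13.9, 14.1 and 13.3 CPM in EA1 and 24.2, 20.8, 33.6 and 18.2 CPM in EA2 (log2 fold change 0.67 ± 0.20 SE, adjusted p = 0.0291), a call lost without day 2, 3 or 5 (adjusted p of 0.0505 to 0.116) and in 1 fit of 16 libraries (0.111). Abcc1, another efflux pump, was higher, at 133 to 202 CPM against 294 to 579 CPM (log2 fold change 1.13 ± 0.19 SE, adjusted p = 0.00271). For aldehyde dehydrogenases, 15 of 18 listed genes were tested, with 6 higher (40%) and 1 lower (6.67%) in EA2 (median log2 fold change 0.50), and 2 were lower without day 1. Of the retinaldehyde dehydrogenases, Aldh1a1 was at 2.49, 7.58, 12.2 and 20.99 CPM in EA1 and 57.5, 176, 273 and 208 CPM in EA2 (log2 fold change 4.21 ± 0.26 SE, adjusted p = 4.78e-05). Aldh1a3 was at 76.3, 64.99, 108 and 112 CPM in EA1 and 0.409, 0.347, 0.470 and 0 CPM in EA2 (log2 fold change -8.13 ± 0.42 SE, adjusted p = 2.84e-05).

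For NRF2 targets, which defend against oxidative stress, 22 of 24 listed genes were tested, with 3 higher (13.6%) and 12 lower (54.5%) in EA2 (median log2 fold change -0.70). Gclc, the rate-limiting enzyme of glutathione synthesis, was at 385, 705, 877 and 791 CPM in EA1 and 97.3, 79.6, 83.8 and 72.9 CPM in EA2 (log2 fold change -2.96 ± 0.27 SE, adjusted p = 0.000304). Its interaction was -2.04 with adjusted p = 0.00579, lost without day 3 or day 5. Osgin1 was at 40.3 to 77.4 CPM against 5.94 to 8.22 CPM (log2 fold change -3.02 ± 0.16 SE, adjusted p = 1.89e-05). Txnrd1, a thioredoxin reductase, was higher in EA2, at 245 to 336 CPM against 370.1 to 541 CPM (log2 fold change 0.69 ± 0.13 SE, adjusted p = 0.00526). In the glycolysis and hypoxia list, 27 of 27 listed genes were tested, with 2 higher (7.41%) and 17 lower (63%) in EA2 (median log2 fold change -1.19), and 1 was higher without day 5. The phosphofructokinase Pfkp was at 78.6, 135, 129.9 and 111 CPM in EA1 and 8.91, 12.2, 21.96 and 11.1 CPM in EA2 (log2 fold change -3.08 ± 0.18 SE, adjusted p = 2.78e-05). The neuronal enolase Eno2 rose, to 20.7, 8.34, 26.5 and 9.15 CPM from 0.498, 0.249, 0.646 and 0.958 CPM (log2 fold change 4.68 ± 0.44 SE, adjusted p = 0.000243), as did the lactate exporter Slc16a3, at 2.79 to 11.6 CPM against 15.5 to 48.6 CPM (log2 fold change 2.15 ± 0.55 SE, adjusted p = 0.024, adjusted p = 0.108 without day 5 and 0.165 with no filter on low counts). For cholesterol and fatty acid synthesis, 27 of 27 listed genes were tested, with 0 higher and 8 lower (29.6%) in EA2 (median log2 fold change -0.70). The count moved with the processing: 14 genes were lower with DESeq2's Wald test, 21 genes were lower without day 5 (median -1.07), and 4 without day 1. The median ratio of the list was above 0 on day 5, at 0.31, and at -1.36 to -0.72 on the other days. In DMSO, 5 of its 27 genes were higher and 2 lower in EA2 (median log2 fold change 0.22). In the interaction, 0 were called upward and 6 downward (median -0.91), where 3.46% of all genes were called downward. Scd2, a stearoyl-CoA desaturase, was at 2131, 3038, 2850.2 and 2130.2 CPM in EA1 and 744, 520.1, 446 and 1641 CPM in EA2 (log2 fold change -1.76 ± 0.42 SE, adjusted p = 0.0198), and its call was lost without day 1 (adjusted p = 0.0730), without day 3 (0.0679) and with no filter on low counts (0.119).

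Beyond the lists, the largest falls over all genes with CPM that did not overlap between lines (45.1% of the genes tested did not) included Rgs5, a regulator of G protein signaling, at 199.9, 649, 869.9 and 723 CPM in EA1 and 0.102, 0, 0.117 and 0.113 CPM in EA2, Alpl, tissue alkaline phosphatase, at 42.02, 326, 597 and 888 CPM against 0.205, 0, 0 and 0.113 CPM, and Igfbp5, an IGF binding protein, at 10.95, 67.2, 121 and 145 CPM against 0.102, 0, 0 and 0 CPM. These 3 genes were lowest in EA1 on day 1. Ugt2b34, a glucuronidation enzyme, was at 84.2, 267, 307 and 391 CPM in EA1 and 0.205, 0, 0 and 0.113 CPM in EA2. Bmp5, a BMP ligand, had 47.1, 91.96, 118 and 94.8 CPM in EA1 and 0 counts in EA2, with 46.7% of its exonic bases shared with another annotated gene. Among the largest rises, Arsj, a sulfatase gene, had 101, 78.9, 80.7 and 79.7 CPM in EA2 and 3 counts in EA1, a ratio of 1117-fold (95% exact counting interval 382 to 5420.1).

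The genes with the smallest p-values of the interaction are those whose line difference changed most clearly with the drug. Cdh17, an intestinal cadherin, had 740.4, 589, 672 and 544 CPM in EA1 and 18.6, 23.5, 14.9 and 15.2 CPM in EA2 in DMSO, but 113, 112, 100.1 and 85.5 CPM in EA1 and 39.9, 37.5, 31.7 and 37.7 CPM in EA2 in alectinib, and the interaction was 3.68 with adjusted p = 1.92e-05. The line difference of St3gal6, a sialyltransferase, was -3.47 in DMSO (log2), whereas with drug it had 11.3 to 20.01 CPM in EA1 and 10.05 to 14.2 CPM in EA2 (interaction 3.15 with adjusted p = 0.000155). S100a16, a calcium-binding protein gene, stayed lower in EA2 in both treatments but by less with drug (-5.39 in DMSO and -3.20 in alectinib, interaction 2.20 with adjusted p = 0.00108). Cited2, a transcriptional coregulator, had 206 to 446 CPM in EA1 and 117 to 155 CPM in EA2 in DMSO, and 191 to 356 and 926, 1222, 1745 and 918 CPM in alectinib (interaction 3.27 with adjusted p = 0.000394). Rel, an NF-kappaB subunit, was at 22.5 to 24.5 CPM in EA1 and 16.9 to 20.5 CPM in EA2 in DMSO and at 16.8, 18.6, 20.8 and 16.6 CPM in EA1 and 50.5, 53.5, 92.2 and 78.02 CPM in EA2 in alectinib (interaction 2.20 with adjusted p = 0.000938). Cgref1, a cell growth regulator, had an interaction of 2.99 with adjusted p = 0.00166, with 6.03 to 8.86 CPM in EA1 and 13.9 to 26.9 CPM in EA2 in alectinib.

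In the downward direction, Myh10, a nonmuscle myosin, had 0.337, 0.949, 0.941 and 1.49 CPM in EA1 and 56.8, 45.5, 33.96 and 59.5 CPM in EA2 in DMSO, and 3.58, 5.22, 8.51 and 11.4 CPM in EA1 and 12.4, 7.64, 2.58 and 11.5 CPM in EA2 in alectinib, where the lines overlapped (interaction -5.60 with adjusted p = 0.000155). The endocytic adaptor Dab2 was at 3.53 to 5.46 CPM in EA1 and 60.9 to 88.9 CPM in EA2 in DMSO and at 21.1 to 43.1 and 30.1 to 56.5 CPM in alectinib (interaction -3.79 with adjusted p = 0.000767). Tgm2, a transglutaminase, had 14.7 to 34.5 CPM in EA1 and 66.1 to 98.3 CPM in EA2 in DMSO, and 92.5 to 198 and 72.96 to 128 CPM in alectinib (interaction -2.45 with adjusted p = 0.000394). The fatty acid elongase Elovl5 was at 563, 609, 654 and 631 CPM in EA1 and 109.8, 113, 128 and 118 CPM in EA2 with drug, against 198 to 276 and 148 to 179.6 CPM in DMSO (interaction -1.99 with adjusted p = 0.000675). Creg1, a secreted glycoprotein, moved alike, with 150.3 to 333 CPM in EA1 and 56.6 to 97.2 CPM in EA2 in alectinib and 39.4 to 76.9 and 51.7 to 69.4 CPM in DMSO (interaction -2.01 with adjusted p = 0.00111). The line difference of the potassium channel gene Kcnu1 was 3.57 in DMSO and 0.89 in alectinib (log2, interaction -2.66 with adjusted p = 0.000805). The calls of these 12 genes held without any 1 day. The count of interaction calls over all genes did not: without day 3 it was 137 and without day 5 it was 150, against 806.

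No gene passed the test of a line difference that changed over the days of drug (edgeR's quasi-likelihood test, product of line and log2 day, 0.0% of 12339 genes, smallest adjusted p = 0.0954), while 1116 genes had an unadjusted p under 0.05 and DESeq2 called 108. Without day 3, 15 genes were called. Each line had 1 library per day in this test.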

How the data were processed

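Per the labels and the study's methods, mRNA libraries (stranded TruSeq, paired reads) were trimmed, mapped to mm10 with STAR and counted by STAR. The deposited values are raw counts per gene symbol. Tool versions, the strand column and the annotation release are not given in the sources used here. Library totals are given in the report. Symbols were placed with the GENCODE annotation of mm10, and of 55415 symbols, 4182 on X and Y, 83 unplaced and 24 turned into date numbers were left out. Counts were tested with edgeR 4.0.16 in R 4.3.3 (TMM, filterByExpr, robust quasi-likelihood test, Benjamini-Hochberg adjustment, threshold 0.05) with line and day as terms in 8 libraries, and the interaction with 8 blocks of line and day in 16. CPM were scaled by TMM over the 16 libraries. DESeq2 1.42.0, other scalings, filters, blocks and days left out were alternatives. On simulated counts for the comparison in alectinib (12159 genes), 71 of 100 genes changed by a log2 of 1 and 100 of 100 changed by a log2 of 2 were called. For the interaction these were 35 and 97 of 100, so that a change by a log2 of 1 could often be missed there. The changed genes were drawn from those with an average log2 CPM over 3, and the dispersion was capped at 0.05. Both make calling easier than in the data. Counting intervals and the floor of 3 counts cover counting error only.

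The members and gene lists were chosen with earlier results of these data known. Named genes were a core panel, in each list up to 2 with the largest rise and 2 with the largest fall among called genes of average log2 CPM of at least 3, over all genes up to 8 in each direction that did not overlap (log2 CPM of at least 5), and 6 in each direction with the smallest p of the interaction and of the change over days. Not all of them are described. Cell type markers, Cd274, Cgas, Dusp5, Egr2, Fas, Mtap and Klhl9 were named outside that rule, after their values were seen. Promoter sequences are from RefSeq on mm10.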

Additional observations from a re-analysis of the deposited data

Results flagged for a closer look

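Of 234 sets of 4 libraries of 1 line in alectinib examined for the 127 genes considered, 18 held 1 library far from the other 3, where chance gives about 1 in 20. On day 3, EA1 stood high for Dusp6 (61.5 CPM) and Egr1 (78.6 CPM), and EA2 for Fgfr1 (288 CPM) and Cxcl15 (4.34 CPM). On day 1, EA2 stood high for Fgf1 (3.17 CPM), Hnf4a (3.07 CPM), Il33 (29.3 CPM), Wnt10b (110.3 CPM) and Arsj (101 CPM). EA2 on day 1 was low for Ankrd1 (370.0 CPM). EA1 on day 1 was low for Tnc (13.8 CPM), Cd276 (114 CPM) and Abcc1 (133 CPM) and high for Csf1 (217 CPM) and Abcb1b (20.01 CPM). On day 5, EA2 was high for Cnn1 (9.03 CPM), and EA1 was high for F3 (205 CPM) and low for Jag2 (74.5 CPM).

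The line difference changed with the drug for 35 of these genes by the interaction test, 8 upward and 27 downward, where 6.14% of all 13134 genes were called. The 6 genes in each direction with the smallest p of this test were in the set by that rule. The count and its split are therefore partly set by the choice of genes. The upward values, on the log2 scale, were 3.68 for Cdh17, 3.27 for Cited2, 3.15 for St3gal6, 2.99 for Cgref1, 2.20 for Rel, 2.20 for S100a16, 1.84 for Myc and 1.31 for Cdh1. Downward, the values for MAPK output and growth genes were -2.64 for Dusp6, -2.45 for Etv4, -2.93 for Etv5, -4.79 for Egr2, -1.07 for Ccnd1 and -3.78 for Fgf1. For lineage and matrix genes they were -7.82 for Epcam, -2.65 for Krt20, -5.80 for Cxcl15, -2.53 for Tnc, -5.15 for Dcn and -4.60 for Col3a1. For signaling and immune genes they were -6.25 for Il33, -1.98 for Cd276, -4.32 for Hey1, -3.40 for Lgr6 and -3.23 for Fzd4. For the others they were -2.04 for Gclc, -2.63 for Slc16a3, -7.72 for Alpl, -9.22 for Igfbp5, -5.60 for Myh10, -2.45 for Tgm2, -1.99 for Elovl5, -3.79 for Dab2, -2.66 for Kcnu1 and -2.01 for Creg1. Of the 35, 20 lost the call without at least 1 day. Besides those said above, these were Alpl, Cdh1, Col3a1, Dcn, Egr2, Epcam, Igfbp5, Krt20, Slc16a3 and Tnc. In EA2 with alectinib, Epcam had 0 counts, and Alpl and Igfbp5 were at or near 0. The interaction sizes of Epcam, Alpl and Igfbp5 thus rest on values at the floor and are not measured sizes.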

How the results depend on the processing

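Each line had 1 library per day, so that no spread within a day could be had, and the shallowest library limits what can be seen of low genes. Requiring a log2 fold change of at least 1 left 2780 genes in alectinib and 2571 in DMSO. The 806 interaction calls became 1865 with DESeq2 and 2281 with no filter on low counts (744 upward and 1537 downward), and 137 to 950 without 1 day. The 0 calls of a change over days became 108 with DESeq2 and 24 with no filter, and 0 to 15 without 1 day. The cause was not tested. The calls in alectinib numbered 4383 to 4733 without 1 day and those in DMSO 2918 to 4335.

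Same-day deviations of the 2 lines correlated at -0.082, -0.535, 0.08 and -0.249 in alectinib and at 0.322, 0.082, 0.094 and 0.203 in DMSO, in the order of days. Not every correlation was above 0.1, so that these values do not show the libraries of 1 day to be pairs. Day was still kept as a block in the tests of alectinib and of DMSO, because libraries of 1 day share the length of exposure. In DMSO the EA1 libraries of days 1, 2 and 3 correlated best with EA2 of their own day (best other day 0.297, 0.067 and -0.023). With no replicate block the calls were 5855 in alectinib, 3919 in DMSO and 855 in the interaction. Of the 127 genes considered, Tgm2 then lost its call in alectinib (adjusted p = 0.111) and Tnc that of the interaction (adjusted p = 0.092). Tgm2 also lost its call in alectinib without day 2, 3 or 5, with adjusted p of 0.0961 to 0.107. No called difference of these genes changed direction under an alternative. Without 1 day, Cxcl1, Fosl1, Mki67 and Myh10, which were not called in alectinib, changed sign there. The 2 filters on low counts change which members of a list are tested. List medians moved by more than the spread of their daily values for 9 lists with no filter and for 7 with at least 10 counts in every library. With no filter, medians were -1.41 for epithelial genes, -3.36 for gut and stomach genes, 0.13 for aldehyde dehydrogenases, -0.67 for ABC transporters, -0.55 for interferon-stimulated genes, -0.22 for mesenchymal genes, -0.18 for MHC class I and -1.05 for checkpoint ligands, and that of alveolar type 2 genes turned from -2.35 to 0.36. With at least 10 counts they were -0.47 for MAPK output, -2.15 for gut and stomach genes, -2.46 for epithelial genes, -1.21 for alveolar type 2 genes and -0.43 for receptor ligands, and turned to 1.31 for complement genes and to -0.06 for G1 regulators. That of receptor tyrosine kinases was then 0.03. In 1 fit of 16 libraries the median of Wnt genes was -0.26. Counts also moved elsewhere: with no replicate block 13 cholesterol and fatty acid genes and 3 aldehyde dehydrogenases were lower, with DESeq2 3 aldehyde dehydrogenases and 5 ABC transporters were lower and 8 G2/M genes higher, and in 1 fit of 16 libraries 3 matrix genes were higher. When every library had to reach 10 counts, the numbers higher and lower were 4 and 1 of 12 receptor tyrosine kinases, 1 and 9 of 15 Wnt genes, 1 and 7 of 9 collagens, 3 and 1 of 8 chemokines, 4 and 2 of 16 mesenchymal genes, 3 and 4 of 18 G1 regulators, 3 and 7 of 14 interferon-stimulated genes, 2 and 6 of 11 receptor ligands, 1 and 7 of 9 epithelial genes, 0 and 3 of 3 gut and stomach genes, and 2 and 0 of 4 complement genes. With no filter 2 YAP and TEAD genes were higher.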

Other observations

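Some genes that were high in EA1 with alectinib were low in EA1 in DMSO. Cxcl12 had 0 to 40 counts per EA1 library in DMSO and 541 to 3187 in alectinib. Igf2 had 20 to 37 counts in DMSO and 208 to 618 in alectinib. Mmp2 had 34 to 70 and 130 to 980. The effect of the drug within EA1 was not tested here.

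Around Cdkn2a and Cdkn2b on chromosome 4, Klhl9, the next protein-coding gene beyond Mtap among those with at least 20 counts, had 512 to 778 counts in EA1 with alectinib and 613 to 1068 in EA2. Both it and Mtap were thus measured in EA1, where Cdkn2a and Cdkn2b were not above 1 count in any library.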
